A study of Mus musculus with 43 samples.

Results

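The EGF receptor family and its ligands were followed across mouse colon organoids and colon fibroblasts by the gene symbols of 10 members: the receptors Egfr, Erbb2 and Erbb3, the receptor inhibitor Lrig1, and the ligands Areg, Ereg, Hbegf, Tgfa, Btc and Nrg1. All 10 were present among the 52636 genes of each of 2 tables of bulk RNA sequencing. The organoid table held 24 libraries. Colonoids came from 2-month-old Vil-cre/ERT2 mice with wild-type Apc (lines M41, M40 and M1). Tumoroids came from Vil-cre/ERT2 mice of the same age whose floxed Apc had been recombined (lines F11, M3 and M14). All of these mice had received tamoxifen, and the villin promoter restricts the recombinase to intestinal epithelium, so the tumoroids model Apc loss in epithelium cultured without stroma. Each line was grown from 1 mouse and cultured for 6 days in 0.5% DMSO vehicle (Ve), 4 µM regorafenib (R4), 8 µM regorafenib (R8) or 1 µM 5-FU, which gave 8 groups of 3 libraries. The fibroblast table held 19 libraries from 4 wild-type lines of C57B/6 mice (M11, M1 (2), M3 and M3 (2)). These were kept for 7 days in Ve, R4, 1 µM autogramin-2 (A1) or R4 with A1 (R4A1), and for 3 lines in 10 µM regorafenib (R10, without M11). Fibroblast line M3 and tumoroid line M3 are different lines. The study lists fibroblast lines M3 and M3 (2) as from 2-month-old mice and does not list M11 or M1 (2). Regorafenib is a multi-kinase inhibitor, 5-FU is a pyrimidine analog used as chemotherapy, and autogramin-2 is an inhibitor of autophagosome formation that targets GramD1A.

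ErbB receptors are tyrosine kinases of the cell surface that signal as dimers through the Ras-ERK and PI3K-Akt cascades. EGFR binds amphiregulin (Areg), epiregulin (Ereg), HB-EGF (Hbegf), TGF-alpha (Tgfa) and betacellulin (Btc), ErbB3 binds neuregulin 1 (Nrg1) and has little kinase activity of its own, and ErbB2 has no known ligand and serves as the preferred partner of the others. The ligands are made as membrane-bound precursors that proteases of the ADAM family release, and Lrig1, a membrane protein also used as a marker of intestinal stem cells, promotes the degradation of ErbB receptors. In the colon, EGF-type ligands drive the renewal of the epithelium, and the organoid medium itself contained recombinant EGF.

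Values are CP20M, the reads counted on a gene scaled to 20000000 counted reads per library, so that 20 CP20M equals 1 CPM. Depth recovered from these values was 7949965 to 12825919 reads per fibroblast library and 4371812 to 22369642 in 23 organoid libraries, while the colonoid M41 R4 library held 512592 reads, so that 1 read there is 39 CP20M. Where a call changed when this shallow library was left out, the value without it is given beside the result. Organoid libraries expressed all 7 epithelial markers of a list with Epcam and Cdh1, and their 7 fibroblast markers summed to 119 CP20M at most. Fibroblast libraries summed to between 110024 and 185056 CP20M over those fibroblast markers, but also held markers of enteric glia and endothelium, which are described beside the members they moved with. Apc was at 1990 to 4189 CP20M in colonoid Ve and 4932 to 5211 in tumoroid Ve, and since recombination removes only part of a gene, a total per gene is no check of the deletion. In bulk samples, fewer cells of a type and less RNA per cell cannot be told apart.

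Ereg (91074622 to 91093646), Areg (91139599 to 91148432) and Btc (91357261 to 91402994) share a 375.5 kb stretch of chromosome 5 (GRCm38) with Epgn, the gene of a further EGFR ligand. Promoter sequences (RefSeq, GRCm38.p6, from 250 bases before to 50 bases after the start) were read for 6 members. Those of Ereg, Erbb3, Nrg1 and Hbegf were not searched. The sequences of 3 are printed: Erbb2 and Btc, which fell with regorafenib, and Areg, the member with the highest level per length in organoids. Capitals mark matches on either strand to AP-1 (TGANTCA), CRE (TGACGTCA), ETS (CCGGAAGT), the TATA box (TATAAA) or TEAD (GGAATG), which were searched in all 6.
Areg, chromosome 5, plus strand, chr5:91139349-91139648: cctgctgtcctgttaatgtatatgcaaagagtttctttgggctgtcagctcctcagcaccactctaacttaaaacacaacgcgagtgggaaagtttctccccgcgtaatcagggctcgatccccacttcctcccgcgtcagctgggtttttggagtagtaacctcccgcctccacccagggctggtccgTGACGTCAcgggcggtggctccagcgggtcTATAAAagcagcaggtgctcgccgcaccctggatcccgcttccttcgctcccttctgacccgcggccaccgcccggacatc
Erbb2, chromosome 11, plus strand, chr11:98412234-98412533: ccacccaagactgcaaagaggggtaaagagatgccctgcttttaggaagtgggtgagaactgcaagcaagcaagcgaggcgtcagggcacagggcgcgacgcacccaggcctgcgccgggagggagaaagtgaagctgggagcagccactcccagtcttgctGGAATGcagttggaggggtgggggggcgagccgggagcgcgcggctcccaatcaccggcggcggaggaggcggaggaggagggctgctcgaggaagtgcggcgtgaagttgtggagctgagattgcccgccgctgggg
Btc, chromosome 5, minus strand, chr5:91402945-91403244: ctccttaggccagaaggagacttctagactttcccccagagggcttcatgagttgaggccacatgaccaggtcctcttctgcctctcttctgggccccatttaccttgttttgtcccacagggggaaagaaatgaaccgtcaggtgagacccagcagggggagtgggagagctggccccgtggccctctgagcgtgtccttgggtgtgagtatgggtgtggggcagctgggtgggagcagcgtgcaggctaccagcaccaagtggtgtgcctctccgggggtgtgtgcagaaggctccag
The Areg window held a CRE starting 61 bases before the start and a TATA box 31 bases before it, and the Erbb2 window held a TEAD match 88 bases before it. Windows of Egfr, Lrig1, Tgfa and Btc held no match. Among 32851 promoters of this length, 1.79% held the CRE, 13.6% the TATA box and 14.7% the TEAD letters, against 7.81% for AP-1 and 3.89% for ETS. A match of letters is a description and not a binding site.

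The receptor genes lie at 16752203 to 16918158 (Egfr) and 98412470 to 98437716 (Erbb2) on chromosome 11 and at 128567523 to 128589652 (Erbb3) on chromosome 10 (GRCm38). Lrig1 (94604529 to 94700158) and Tgfa (86195223 to 86275719) lie on chromosome 6. The legends of the study describe CP20M as already per kilobase. In libraries where 1 read is worth clearly more than 1 CP20M, however, a single smallest step serves long and short genes alike. The deposited numbers were therefore treated as not divided by length, and the levels, order and shares per kb that follow rest on this. Per kilobase of merged exons, Areg was the highest member in colonoid Ve, at 5722 ± 2202 CP20M per kb (SD, n = 3), followed by Erbb3 at 1156 ± 255.1 and Erbb2 at 733.3 ± 117. The ranges of Areg and Erbb3, and of Erbb3 and Erbb2, did not overlap, while from Erbb2 down through Ereg, Btc, Lrig1, Hbegf and Egfr each neighbour overlapped the next. The order below Erbb2 depended on the length used. Per kilobase of the longest transcript, Hbegf (mean 692.2) came next below Erbb2 (762.2), and Tgfa (426.4) stood above Egfr (386.6). In tumoroid Ve the order began with Areg (5564 ± 3331) and Ereg (1337 ± 981.5), whose ranges overlapped. Summed per kb over the 6 ligands, Areg made up 74.7% ± 6.90 of ligand RNA in colonoid Ve and 68.8% ± 5.46 in tumoroid Ve (SD, n = 3 each). Ereg made up 7.80% ± 3.12 and 16.8% ± 4.31, and the ranges of that share did not overlap, which was not tested. Nrg1 was at 11 CP20M at most in any organoid library, below the 200 CP20M that a gene needed in 2 libraries to be tested.

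**Figure D1:**
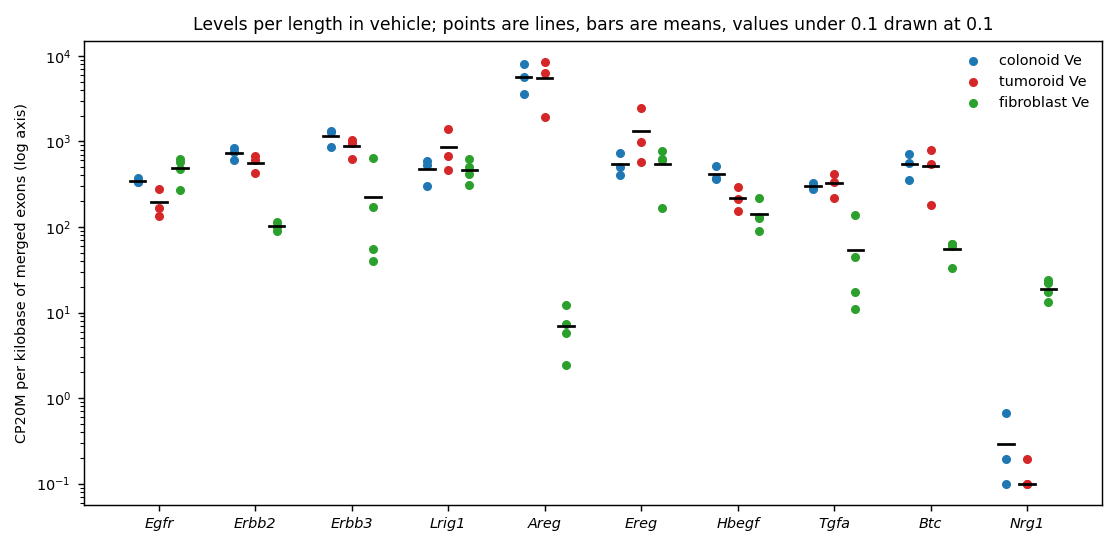
CP20M per kilobase of merged exons (log axis) for the 10 members in vehicle, with 1 point per line and a bar at the mean of each group. Areg spans the widest gap between organoids and fibroblasts, from 5722 CP20M per kb in colonoids to 7.00 in fibroblasts, and Nrg1 is near 0 in both kinds of organoid.

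Fibroblast Ve showed another set. Ereg (543.3 ± 262.8 CP20M per kb, SD, n = 4), Egfr (485.4 ± 152.6) and Lrig1 (460.3 ± 136.7) were the highest members, and their ranges overlapped. Areg, the main ligand of the organoids, was at 7.00 ± 4.12 per kb and did not pass the filter, although its neighbour Ereg led the order. Nrg1 was at 19.1 ± 4.74 per kb and passed it. The tables were normalized separately, so these levels were set side by side and not tested.

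The first comparison asked whether Apc loss altered the family in vehicle. None of the 9 members tested was called (limma, Benjamini-Hochberg adjusted p under 0.05) between tumoroids and colonoids, against 1.4% of all 11320 genes tested. An unadjusted p under 0.05 was found for 3 members and for 1717 of all genes. Hbegf (chromosome 18, 36504927 to 36515805), the gene of the HB-EGF precursor, was at 1794, 2474 and 1733 CP20M in the colonoid lines M41, M40 and M1 and at 745, 1030 and 1398 in the tumoroid lines F11, M3 and M14. The groups did not overlap, and the log2 difference was -0.93 ± 0.30 (SE, adjusted p = 0.146). Without the shallow library, which is in neither group but enters the shared spread, the same difference had an adjusted p of 0.0276, and with edgeR's quasi-likelihood test on the recovered reads, which called 1 member, 0.0466 (0.0276 to 0.481 over all alternatives). Without that library 8.55% of all genes were called.

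Egfr was at 3839, 4184 and 3817 CP20M in colonoid Ve and 1529, 1893 and 3146 in tumoroid Ve (log2 difference -0.91 ± 0.37, adjusted p = 0.255), again without overlap. Lrig1 was at 1670, 2990 and 3298 CP20M in colonoids and 7875, 3764 and 2607 in tumoroids, where line F11, the only organoid line from a female mouse, was the highest (0.74 ± 0.34, adjusted p = 0.317). The stem cell markers Lgr5, Ascl2 and Smoc2, a type of cell that Lrig1 also marks, summed to 293 to 850 CP20M in colonoid Ve and 675 to 5245 in tumoroid Ve, highest in F11, and their part in the Lrig1 level was not tested. The tumoroid lines differed widely among themselves in 3 ligands. Areg was at 2364 CP20M in F11, 10332 in M3 and 7584 in M14, Ereg at 2370, 10091 and 4100, and Btc at 822, 3621 and 2490, so that F11 was lowest and M3 highest in each. For these ligands the 95% intervals of the log2 difference between genotypes ran from -1.08 to 0.67 for Areg, from -0.37 to 2.51 for Ereg and from -1.48 to 0.94 for Btc.

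The second comparison asked how regorafenib moved the family in organoids. Regorafenib lowered 3 of the 9 members tested, the receptors Erbb2 and Erbb3 and the ligand Btc, and raised none, against 26.5% of all genes called and 15.3% called lower. The median log2 difference was -0.49 over the 9 members and -0.10 over all genes tested. TMM scaling, which moved the median of all genes to -0.04, left each of the 3 called and lower and also called Tgfa higher (0.48, adjusted p = 0.0293). Within colonoids the same scaling moved the median of all genes from -0.14 to -0.03, and Erbb2 was called lower under both.

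Markers of differentiated cells were also lower with regorafenib. The absorptive colonocyte markers Car1, Aqp8 and Slc26a3 summed to 9355 to 16004 CP20M in colonoid Ve, 132 to 1017 in R4 and 18 to 696 in R8, without overlap, and Slc26a3 was at 0 throughout colonoid R8. In tumoroids they summed to 1422 to 5597 in Ve, where Aqp8 and Slc26a3 were at 0, 153 to 183 in R4 and 125 to 257 in R8. The goblet cell markers Muc2, Clca1 and Tff3 summed to 882 to 12080 CP20M in colonoid Ve, 46 to 1212 in R4 and 15 to 49 in R8, and to 200 at most in any tumoroid library. The stem cell markers summed to 119 to 432 in colonoid R4, which overlapped the 293 to 850 of colonoid Ve. In colonoid R8 they summed to as little as 76, and every library there was below every Ve library. In tumoroids they summed to 609 to 1719 in R4 and 157 to 885 in R8, both overlapping the 675 to 5245 of Ve. With 5-FU the absorptive sum was 6563 to 14433 in colonoids and 2409 to 4169 in tumoroids. The sum of the leukocyte markers Ptprc, Cd68, Adgre1, Csf1r and Lyz2 was higher in R8. It was 423 to 511 CP20M in colonoid Ve and 596 to 3245 in colonoid R8. In tumoroids it was 507 to 573 in Ve and 854 to 1736 in R8. Adgre1 and Lyz2 were at 0 in R8 of both genotypes, and 2 of the 5 markers reached 200 CP20M there. The part of all these markers in the member differences was not tested.

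**Figure D2:**
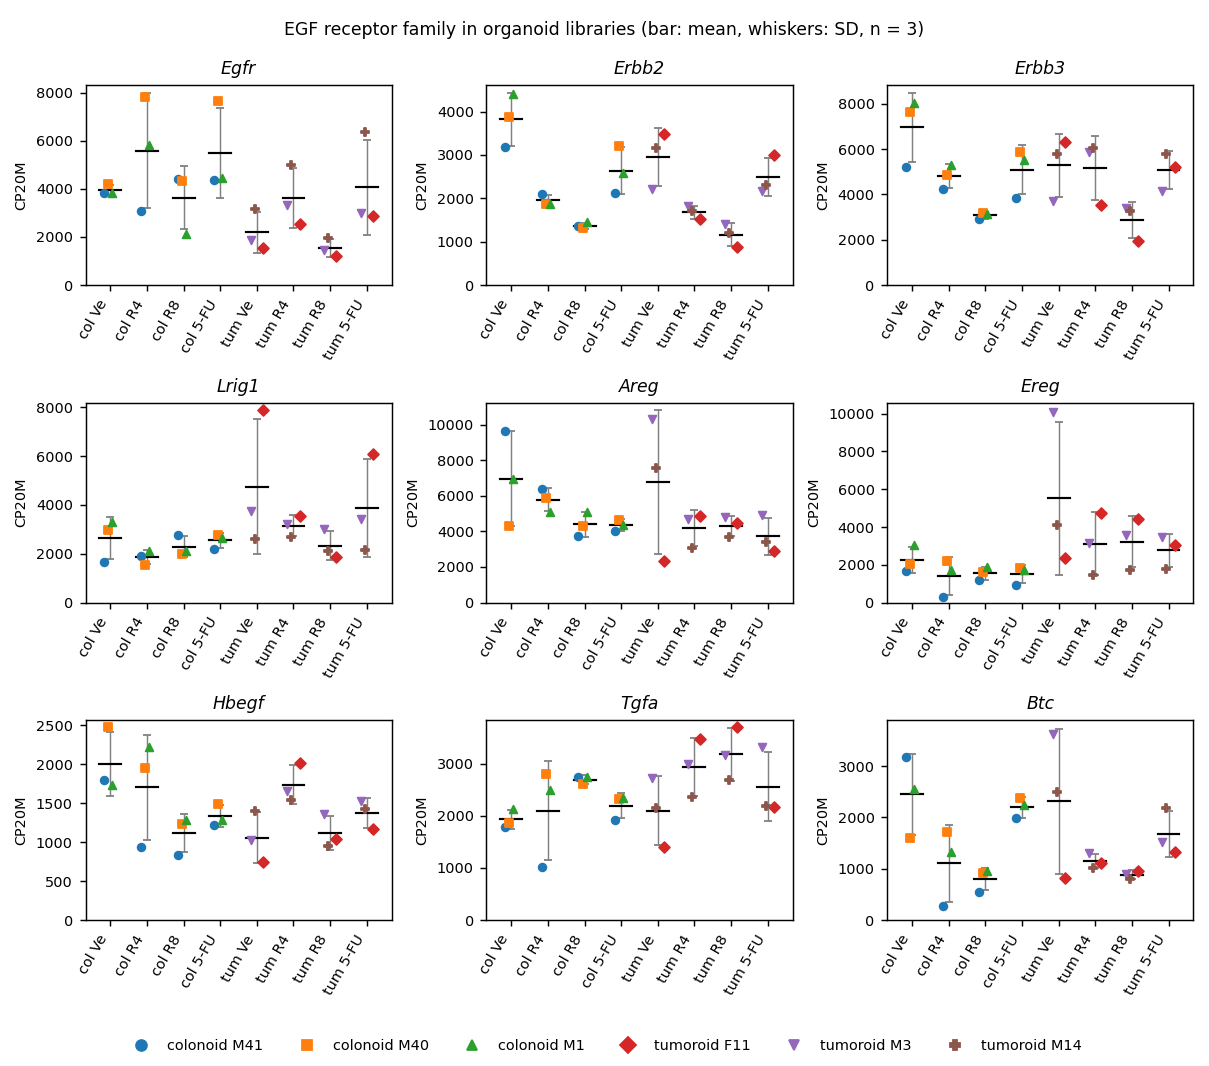
CP20M of the 9 members tested in the 24 organoid libraries (linear axes from 0), by genotype (col, colonoid; tum, tumoroid) and treatment, with 1 symbol per line, a bar at the mean and whiskers of 1 SD (n = 3). Erbb2 lies lower in every R4 and R8 library than in every Ve library of the same genotype, and among the R4 libraries the colonoid M41 symbol lies lowest for Ereg, Tgfa and Btc.

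Erbb2 in colonoids M41, M40 and M1 was at 3187, 3871 and 4403 CP20M in Ve, 2107, 1877 and 1874 in R4 and 1352, 1306 and 1446 in R8. In tumoroids F11, M3 and M14 it was at 3490, 2205 and 3154 in Ve, 1515, 1822 and 1697 in R4 and 880, 1403 and 1195 in R8. No treated library reached the lowest Ve library of its genotype, and the 3 colonoid groups followed each other without overlap. The log2 difference between regorafenib and Ve was -1.13 ± 0.12 (fold 0.457, adjusted p = 1.76e-05), with all 6 lines lower. It was -1.20 ± 0.17 within colonoids (adjusted p = 0.000458) and -1.06 ± 0.17 within tumoroids (adjusted p = 0.00239). In colonoids and over both genotypes Erbb2 was called under every alternative tried at an adjusted p of 0.05. In tumoroids, the call was lost without line F11 (-0.80, adjusted p = 0.0532) or without M14 (-1.02, adjusted p = 0.0543), the highest of a range that began at 0.00079. Without the shallow library the difference over both genotypes was -1.14 (adjusted p = 7.92e-06). Mien1, which overlaps Erbb2 on the opposite strand, was at 544 to 1717 CP20M in organoids, and whether reads were counted by strand is not given in the sources used here.

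Erbb3 fell together with it in colonoids, from 5193, 7645 and 8018 CP20M in Ve to 4253, 4859 and 5302 in R4 and 2896, 3175 and 3139 in R8. Tumoroid values were 6305, 3717 and 5797 in Ve, 3531, 5888 and 6030 in R4 and 1932, 3409 and 3246 in R8, so that only the R8 group lay below Ve without overlap. Over both genotypes the log2 difference was -0.65 ± 0.16 (adjusted p = 0.0091), lower in 5 of 6 lines, and -0.62 (adjusted p = 0.00731) without the shallow library. Within colonoids it was -0.83 ± 0.23 (adjusted p = 0.0253, 2 members called, both lower, against 9.2% of all genes called lower), a call that was lost without M40 (adjusted p = 0.155) or without M1 (0.135) and ranged from 0.00893 to 0.155. Within tumoroids it was -0.46 ± 0.23 (adjusted p = 0.261, 1 member called against 7.69%). Across the 24 organoid libraries, the levels of Erbb2 and Erbb3 had a Spearman rho of 0.78, a description of libraries that share lines and treatments.

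Egfr and Lrig1 were not called. Egfr in colonoids was at 3083, 7843 and 5825 CP20M in R4 and 4427, 4340 and 2123 in R8, and in tumoroids at 2545, 3311 and 4973 in R4 and 1187, 1473 and 1964 in R8. All 3 tumoroid lines stood above their own Ve value in R4 and below it in R8, and the mean of both doses differed from Ve by a log2 of 0.12 (95% interval -0.37 to 0.60). Lrig1 was at 1552 to 2125 CP20M in colonoid R4, 1978 to 2776 in colonoid R8, 2686 to 3547 in tumoroid R4 and 1871 to 3004 in tumoroid R8 (log2 difference -0.49 ± 0.21, adjusted p = 0.0945). Without line M41 Lrig1 was called (-0.68, adjusted p = 0.0292, against up to 0.376 under other alternatives).

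Among the ligands, Btc was at 3178, 1607 and 2559 CP20M in colonoid Ve, 274, 1711 and 1331 in R4 and 547, 913 and 947 in R8. In tumoroids Btc was at 822, 3621 and 2490 in Ve, 1120, 1300 and 1024 in R4 and 965, 894 and 801 in R8. In line F11 both treated values were above Ve, and in the other 5 lines the treated values were lower on average. The log2 difference was -1.22 ± 0.35 (adjusted p = 0.0171) with the shallow library, whose 274 CP20M rest on few reads, and -1.02 ± 0.25 (adjusted p = 0.00517) without it. The call was lost without tumoroid line M3 (-1.03, adjusted p = 0.0984) or M14 (-1.10, adjusted p = 0.108), with 0.00231 as the lowest value under any alternative. Within colonoids Btc differed by -1.50 ± 0.49 (adjusted p = 0.0516), and blocking on line left the size as it was and gave an adjusted p of 0.0468 (0.0249 to 0.251 over all alternatives). Without the shallow library the colonoid difference was -1.10 ± 0.37 and was called (adjusted p = 0.0357, 28.8% of all genes called), so Btc then joined Erbb2 (-1.23, 0.000196) and Erbb3 (-0.79, 0.0231) there. Within tumoroids it differed by -0.95 ± 0.49 (adjusted p = 0.282), and edgeR called it (0.0463).

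Tgfa, the gene of TGF-alpha, had values on the other side of vehicle. Its levels in colonoids were 1791, 1867 and 2133 CP20M in Ve, 1015, 2791 and 2495 in R4 and 2738, 2606 and 2741 in R8, and in tumoroids 1405, 2724 and 2156 in Ve, 3464, 2985 and 2353 in R4 and 3696, 3164 and 2682 in R8. All R8 libraries of colonoids exceeded all Ve libraries, and in R4 the shallow library was the one low value. With it the log2 difference was 0.41 ± 0.19 (adjusted p = 0.129), and without it 0.52 ± 0.13 (adjusted p = 0.00465, 43.4% of all genes called), so Tgfa passed the test when this 1 library was left out. Within tumoroids, which do not hold that library but share its spread, Tgfa differed by 0.58 ± 0.27 (adjusted p = 0.225) with it in the fit and by 0.58 ± 0.18 (adjusted p = 0.0323, 21.1% of all genes called) without it. EdgeR on the recovered reads, in which that library counts for less, called Tgfa with it included (adjusted p = 0.0207), and over all alternatives the range was 0.00465 to 0.517.

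Areg, Ereg and Hbegf were not called. Areg ran from 3738 to 6399 CP20M in treated colonoids and from 3055 to 4892 in treated tumoroids, a narrower spread than the 4289 to 9639 and 2364 to 10332 of their Ve groups (log2 difference -0.42, 95% interval -0.95 to 0.12). Without F11, in which Areg was higher with regorafenib, it was called lower (-0.77, adjusted p = 0.0168, against up to 0.632 under other alternatives). Without the shallow library the difference was -0.44 for Areg (adjusted p = 0.193), -0.50 for Ereg (0.21), 0.02 for Hbegf (0.922), 0.21 for Egfr (0.417) and -0.50 for Lrig1 (0.0749), and none of the 5 was called. Ereg ran from 274 to 2177 CP20M in treated colonoids and from 1445 to 4754 in treated tumoroids (-0.73, -1.61 to 0.15). Hbegf in colonoids was at 937, 1944 and 2224 CP20M in R4 and 835, 1227 and 1277 in R8, and in tumoroids at 2018, 1653 and 1535 in R4 and 1034, 1364 and 955 in R8 (-0.07, -0.47 to 0.32). As a share of ligand RNA per kb, Areg averaged between 65.8% and 75.0% in colonoid R8 and at both doses in tumoroids. In colonoid R4, which holds the shallow library, it averaged 79.4% (72.9% to 91.7%).

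**Figure D3:**
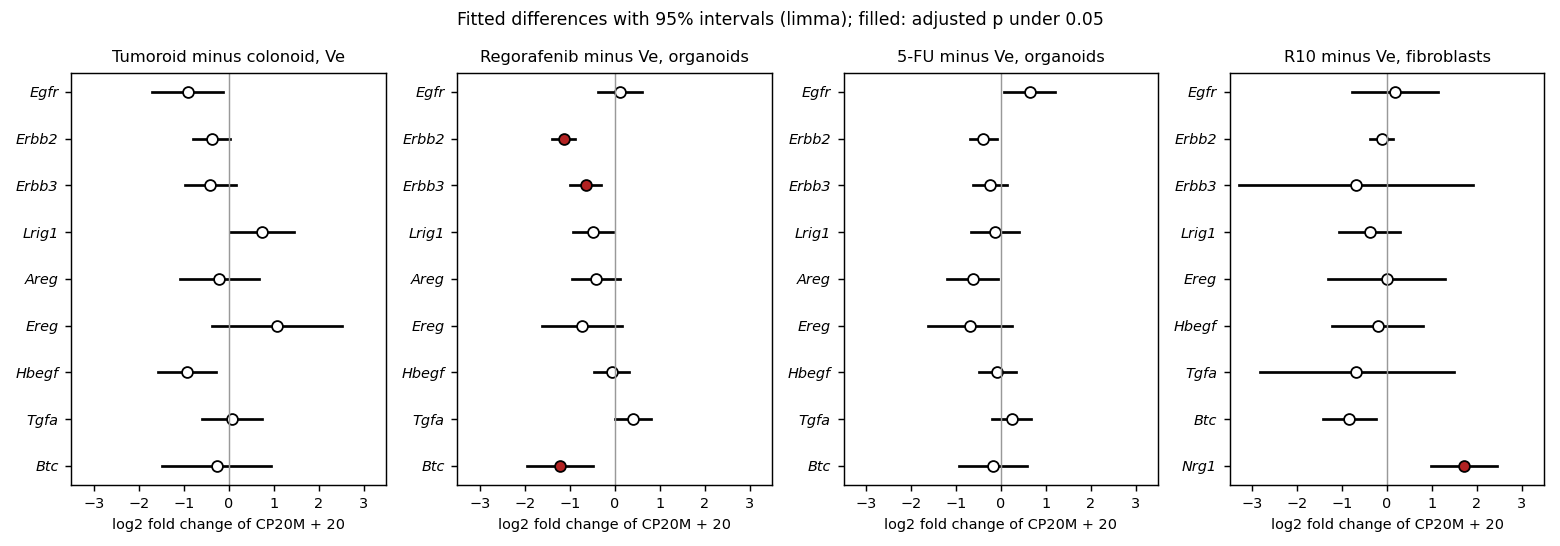
Fitted log2 differences of CP20M + 20 with 95% intervals from limma, for 9 members in each of 4 comparisons, with filled points at an adjusted p under 0.05. Erbb2, Erbb3 and Btc are filled for regorafenib in organoids and Nrg1 for R10 in fibroblasts, and no point is filled for Apc loss or 5-FU.

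Whether the regorafenib response depended on Apc was tested by the difference of the responses. No member was called, with 1 at an unadjusted p under 0.05 and none called by edgeR, against 0.00883% of all genes. That member was Hbegf, whose response was -0.57 ± 0.26 in colonoids and 0.42 ± 0.26 in tumoroids (difference 0.99, 95% interval 0.20 to 1.79, adjusted p = 1, and 0.81 ± 0.29, adjusted p = 0.832, without the shallow library). For Erbb2 the interval of the difference was -0.36 to 0.66, and for Btc -0.93 to 2.04.

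Between the doses, R8 against R4, no member was called by limma (0.512% of all genes), and edgeR called 1, Erbb3. In limma 1728 of all 11320 genes and 4 members had an unadjusted p under 0.05. All 4 were lower at the higher dose. Egfr differed by -0.89 ± 0.26 (5 of 6 lines lower, adjusted p = 0.145), Erbb2 by -0.53 ± 0.14 (6 of 6, 0.101), Erbb3 by -0.74 ± 0.19 (6 of 6, 0.0929) and Hbegf by -0.58 ± 0.21 (6 of 6, 0.221). Blocking on line, Egfr was called (adjusted p = 0.0463, 0.00256 to 0.486 over all alternatives). Without the shallow library, Egfr (-1.08 ± 0.24, adjusted p = 0.0355) and Hbegf (-0.77 ± 0.17, 0.0354, with values up to 0.579 under other alternatives) were called, against 1.84% of all genes.

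Other genes of the pathway were read from 6 lists. Of the other ErbB family (Egf, Epgn, Erbb4, Nrg2, Nrg3 and Nrg4), 1 of 6 genes was expressed enough to be tested in organoids and it was not called. For regorafenib, 26.5% of all genes were called, and 15.3% were called lower. In the ERK targets and feedback list, regorafenib lowered 4 and raised 3 of 15 genes, with 8 not called and a median log2 difference of -0.03. The immediate-early transcription factors Egr1 (-3.03 ± 0.36, adjusted p = 3.67e-05) and Fos (-1.88 ± 0.21, 2.19e-05) fell most, with Fosl1 (-0.80 ± 0.21, 0.0112). The 3 that rose, named after their values were seen, were the ETS factors Etv4 (0.66 ± 0.21, 0.0278) and Etv5 (0.57 ± 0.15, 0.0128) and the phosphatase Dusp4 (0.71 ± 0.23, 0.0353). In the list of receptor restraint and turnover, 3 of 8 genes fell, 1 rose and 4 were not called, with a median of -0.12. Those that fell were Errfi1, which encodes the EGFR inhibitor Mig6 (-1.29 ± 0.29, adjusted p = 0.00448), Lrig3, a relative of Lrig1 (-1.12 ± 0.26, 0.00552), and Socs4 (-0.45 ± 0.13, 0.0191). Of 15 adaptors and Ras-ERK genes, 1 fell (Shc1, -0.53 ± 0.14) and 1 rose (Ptpn11, 0.30 ± 0.10), with a median of 0.03. Of the 5 ligand release genes 1 fell, Rhbdf1 (-0.33 ± 0.10), and of 6 PI3K-Akt genes 1 rose, Pik3r2 (0.40 ± 0.10). No list gene was called for Apc loss, for the difference of the responses, for R8 against R4 or for 5-FU. Of all genes, 1.4%, 0.00883%, 0.512% and 3.08% were called there. Without the shallow library, R8 was lower than R4 in 4 of 15 ERK targets (Egr1 -1.91 ± 0.31, Dusp6 -1.17 ± 0.21, Fos -1.07 ± 0.23 and Spred2 -0.42 ± 0.09), in Errfi1 (-1.39 ± 0.25) and in Shc1 (-0.42 ± 0.09), which were named after their values were seen. That fit called 1.84% of all genes for R8 against R4. Also without that library, 4 list genes were lower with 5-FU, Fos (-0.70 ± 0.21), Etv5 (-0.58 ± 0.12), Socs4 (-0.31 ± 0.07) and Akt2 (-0.25 ± 0.07), against 9.72% of all genes called. With Apc loss 1 was lower, Mapk3 (-0.54 ± 0.12), against 8.55% of all genes called. No list gene was higher in these 3 comparisons. For regorafenib the fit without that library gave 5 lower and 4 higher of the 15 ERK targets, 3 lower and 2 higher of the 8 restraint genes, and 1 lower and 3 higher of the 15 adaptors. It called 43.4% of all genes for regorafenib.

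For 5-FU the question was whether a cytotoxic drug moved the same members. No member was called by limma or by edgeR, against 3.08% of all 11562 genes tested. An unadjusted p under 0.05 in limma was found for 3 members and for 1817 of all genes. Egfr was at 4354, 7665 and 4459 CP20M in colonoids and 2872, 2984 and 6357 in tumoroids treated with 5-FU, above the Ve value of the same line in 6 of 6 lines (log2 difference 0.64 ± 0.28, adjusted p = 0.252). A fit that blocked on line gave the same difference an SE of 0.18 and called it (adjusted p = 0.0382, 0.00362 to 0.53 over all alternatives). Erbb2 was at 2121, 3211 and 2573 in colonoids and 2992, 2161 and 2307 in tumoroids, below Ve in 6 of 6 lines (-0.39 ± 0.14, adjusted p = 0.162). Areg differed by -0.62 ± 0.27 (4 of 6 lines lower, adjusted p = 0.253) and was called without line F11 (-0.86, adjusted p = 0.0409, against up to 0.686 under other alternatives). The 5-FU and regorafenib comparisons share their Ve libraries. The response to 5-FU was not called to differ by genotype for any member by limma or edgeR (0% of all genes). In limma 1 member, Hbegf, had an unadjusted p under 0.05, as did 87 of all 11562 genes.

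In fibroblasts, Erbb3 separated by line. It was at 333, 241, 1033 and 3816 CP20M in Ve in lines M3, M3 (2), M1 (2) and M11, and each line kept its place in every treatment. The glial transcription factor Sox10 and S100b, a further marker of enteric glia, summed to 518, 294, 2005 and 5265 CP20M in the same libraries, and neither was at 0 in any of the 19 libraries. Across the 19 libraries Erbb3 had a Spearman rho of 0.97 with Sox10 and 0.95 with S100b, over libraries that share 4 lines. The part of glial cells in the Erbb3 level was not tested.

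**Figure D4:**
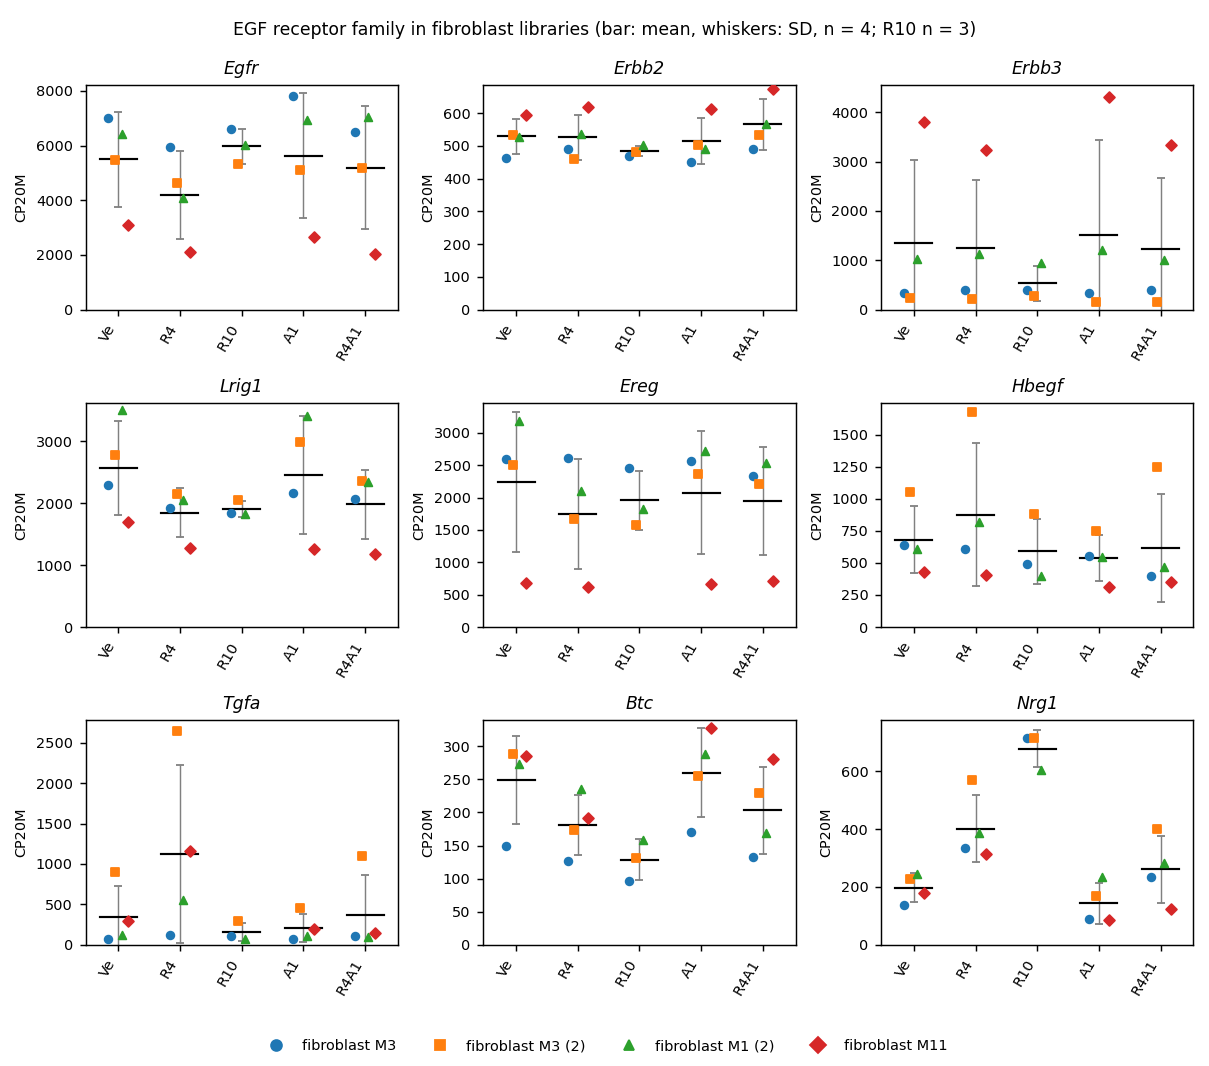
CP20M of the 9 members tested in the 19 fibroblast libraries (linear axes from 0) in Ve, R4, R10, A1 and R4A1, with 1 symbol per line, a bar at the mean and whiskers of 1 SD (n = 4, and 3 in R10). Nrg1 is above every Ve library in every R4 and R10 library, while Erbb3 separates by line, with M11 above 3000 CP20M throughout.

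Tgfa moved with endothelial markers in the same way. It was at 72, 906, 114 and 290 CP20M in Ve and at 113, 2642, 558 and 1166 in R4 in lines M3, M3 (2), M1 (2) and M11. Pecam1, Cdh5 and Kdr together were at 845, 7043, 1478 and 2065 CP20M in Ve and at 1313, 20026, 4834 and 6245 in R4, higher in all 4 lines. Pecam1 and Cdh5, which are defining genes of endothelium, were the genes most like Tgfa across the 19 libraries (rho 0.96 and 0.95 among 11032 genes). Kdr had a rho of 0.75 with it. The log2 difference of Tgfa between R4 and Ve was 1.52 ± 0.94 (adjusted p = 0.521), and blocking on line 1.52 ± 0.38 (adjusted p = 0.0077, against 0.896 at most without it). In R10 Tgfa was at 102, 287 and 75 CP20M, below the R4 value of each line, and the R10 against R4 difference was -2.20 ± 1.02 (adjusted p = 0.403) and with the block -2.13 ± 0.41 (adjusted p = 0.00323). The part of endothelial cells in these values was not tested.

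**Figure D5:**
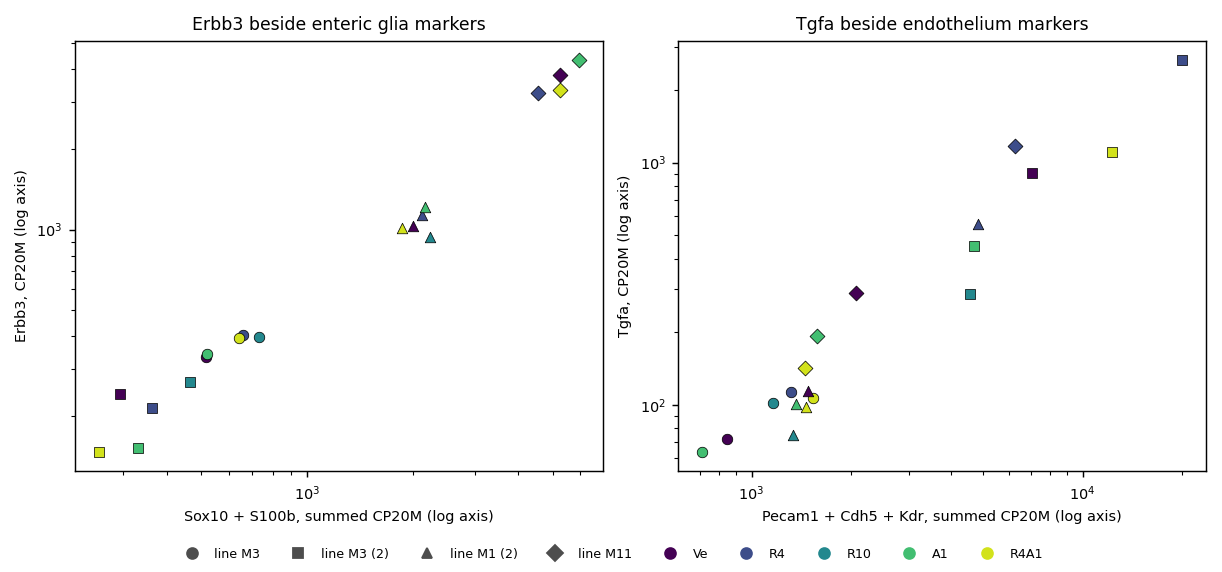
Left, Erbb3 against the summed CP20M of Sox10 and S100b, and right, Tgfa against the summed CP20M of Pecam1, Cdh5 and Kdr, in the 19 fibroblast libraries on log axes, with shape for line and color for treatment. Erbb3 follows the line, and Tgfa and the endothelial sum are both highest in the R4 library of line M3 (2), at 2642 and 20026 CP20M.

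The regorafenib comparisons in fibroblasts asked which members moved at each dose. For R10, 1 of 9 members was called, Nrg1, against 14.4% of all 11032 genes. Nrg1 (chromosome 8, 31814551 to 32884029), the neuregulin ligand of ErbB3, was at 137, 227, 246 and 179 CP20M in Ve, at 334, 571, 385 and 315 in R4 and at 715, 716 and 603 in R10. Neither dose group overlapped Ve or the other dose. The log2 difference to Ve was 1.71 ± 0.35 for R10 (fold 3.27, adjusted p = 0.00368, 3 of 3 lines higher) and 0.95 ± 0.32 for R4 (4 of 4 lines higher, adjusted p = 0.176). The R10 call was lost without line M3 (1.52, adjusted p = 0.0831). Blocking on line, Nrg1 was called at both doses (adjusted p = 3.76e-05 for R10 and 0.00302 for R4), and the highest values under any alternative were 0.0831 and 0.557. The 3 genes most like it were Lmo4, Itm2a and Itga8 (each rho 0.94), and the smooth muscle genes Myh11, Cnn1 and Des stood at 0.85, 0.68 and 0.43. These 3 markers summed to 2438 to 7355 CP20M in Ve, 7181 to 16835 in R4 and 11012 to 14961 in R10, and their part in the Nrg1 difference was not tested.

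For R4 no member was called by limma or edgeR (1.72% of all genes). In limma 1 member had an unadjusted p under 0.05, as did 1502 of all 11032 genes. A fit that blocked on line called 6 of 9 members for R4 (23.2% of all genes) and 5 of 9 for R10 (42.4%). Beside Nrg1 and Tgfa, the block called Egfr (-0.42 ± 0.10, adjusted p = 0.00792), Lrig1 (-0.45 ± 0.10, 0.0047), Ereg (-0.33 ± 0.10, 0.0302) and Btc (-0.40 ± 0.13, 0.0311) lower in R4, while fits without the block gave each of the 6 an adjusted p above 0.05. Egfr was at 7014, 5454, 6432 and 3091 CP20M in Ve and 5937, 4638, 4089 and 2103 in R4, lower in 4 of 4 lines. Lrig1 was at 2295, 2775, 3509 and 1705 in Ve, 1923, 2144, 2047 and 1273 in R4 and 1845, 2053 and 1832 in R10. In R10 the block called Lrig1 (-0.59 ± 0.11, adjusted p = 0.000525), Btc (-0.74 ± 0.14, 0.000504), Ereg (-0.47 ± 0.11, 0.00305) and Hbegf (-0.44 ± 0.17, 0.0419) lower. Line M11, which has no R10 library, had the lowest Ereg (679 CP20M in Ve against 2509 to 3186 in the others). Without M11, Lrig1 (-0.56, adjusted p = 0.024) and Ereg (-0.51, 0.0453) were called lower in R10 with no block. Btc was at 149, 289, 273 and 286 CP20M in Ve and 97, 131 and 158 in R10, lower in 3 of 3 lines (-0.84 ± 0.28, adjusted p = 0.0568), and was called without line M3 (-0.88, adjusted p = 0.032, 0.000504 to 0.334 over all alternatives). For Erbb2 the log2 difference to Ve lay between -0.04 and 0.05 in R4 and between -0.16 and -0.04 in R10 over the alternatives.

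The sum of the leukocyte markers Ptprc, Cd68, Adgre1, Csf1r and Lyz2 was lower with regorafenib in the same libraries. In lines M3, M3 (2), M1 (2) and M11 the sum was 2357, 1045, 1646 and 5313 CP20M in Ve and 1125, 627, 903 and 1882 in R4. In the first 3 lines it was 611, 582 and 610 in R10. Lyz2 alone was at 4214 CP20M in M11 Ve. Cd68 went the other way in R10, at 120, 89 and 100 CP20M against 108, 66 and 84 in Ve. The other markers were lower there in each line. In R4A1 the sums were 676, 446, 514 and 704. In every regorafenib library the sum was below that of the Ve library of its line, and the part of leukocytes in the member values was not tested.

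Between R10 and R4 no member was called by limma or edgeR (0.245% of all genes). In limma 2 members had an unadjusted p under 0.05, as did 1342 of all 11032 genes. With the block 2 were called, Tgfa and Hbegf (-0.67 ± 0.17, adjusted p = 0.0113), against 18.7% of all genes.

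No member was called with autogramin-2 alone by limma or edgeR (0% of all genes called). None of the 9 members had an unadjusted p under 0.05 in limma, against 120 of all 11032 genes. Nrg1 was at 89, 169, 233 and 84 CP20M in A1, below Ve in 4 of 4 lines (log2 difference -0.48, 95% interval -1.16 to 0.20). The addition of autogramin-2 to R4 was tested by R4A1 against R4, where no member was called by limma or edgeR (0.00906% of all genes called). There too no member had an unadjusted p under 0.05 in limma, against 622 of all 11032 genes. Nrg1 was at 234, 400, 282 and 124 CP20M in R4A1, below R4 in 4 of 4 lines (-0.65 ± 0.32, adjusted p = 0.871, and with the block 0.0803). Tgfa was at 107, 1104, 98 and 142 CP20M, also below R4 in 4 of 4 lines, and was called with the block (-1.62 ± 0.38, adjusted p = 0.033), where 4% of all genes were called. The endothelial markers in R4A1 summed to 1529, 12257, 1460 and 1452 CP20M, below R4 in 3 of 4 lines. Against Ve, R4A1 gave no called member by limma or edgeR (2.89% of all genes). Again no member had an unadjusted p under 0.05 in limma, against 1937 of all 11032 genes. With the block 1 member was called, Lrig1 (-0.37 ± 0.10, adjusted p = 0.0139), against 27.2% of all genes.

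Of the pathway lists in fibroblasts, the ERK targets and feedback genes had 2 of 15 lower in R4, 3 lower in R10 and 2 lower in R4A1, and none higher. Of all genes, 1.72%, 14.4% and 2.89% were called in these comparisons. The list medians were -0.45, -0.35 and -0.51 against medians of all genes between -0.04 and 0. Blocking on line, 12, 12 and 11 of the 15 were lower and none higher, where 23.2%, 42.4% and 27.2% of all genes were called. The Spred genes, which encode inhibitors of Ras-ERK signaling, were among them (Spred1 -0.89 ± 0.14, adjusted p = 0.000643, and Spred2 -0.35 ± 0.08, 0.00663, in R10). In the list of receptor restraint and turnover, Errfi1 fell in R10 (-1.65 ± 0.40, adjusted p = 0.0115) and in R4A1 (-1.60 ± 0.37, 0.0289), Socs5 fell in R4 (-0.57 ± 0.08, 0.00132), R10 and R4A1, and Lrig2 rose in R10 (0.32 ± 0.08, 0.0163) and R4A1. In R10, Braf (0.58 ± 0.14) and Araf (0.38 ± 0.09) rose and Nras fell (-0.27 ± 0.08) among 15 adaptors and Ras-ERK genes, and of 6 PI3K-Akt genes 2 were called lower with the block and none without it. Of the 8 restraint genes the block called 2 lower in R4, 4 in R10 and 2 in R4A1, with 1 higher in each. No ligand release gene was called by limma without the block, and with it 2 of the 5 were lower in R4, 3 in R10 and 2 in R4A1, with none higher.

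Of the genes most like each member in organoids, the one nearest Ereg (rho 0.92) was Gm19610 and the one nearest Tgfa (rho 0.94) was Gm43917. Both overlap that member on the opposite strand, at a median of 189.5 and 172.0 CP20M, so reads of these pairs cannot be told apart unless counting used strand. Egfr (with Egfros), Lrig1 (with Slc25a26) and Nrg1 (with Gm22140 and Gm26578) also overlap genes of the opposite strand, whose levels were not examined. Erbb2 was most like Aoc1 (0.94), Btc most like Mal2 (0.93), Egfr most like Itga2 (0.91) and Erbb3 most like Psd (0.87). Areg had the lowest nearest rho of the 9 members (Pam, 0.78). In fibroblasts Ereg and Egfr had a rho of 0.81 with each other over the 19 libraries, and Tgfa and Egfr one of -0.78.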

How the data were processed

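Bulk RNA sequencing of 24 organoid and 19 fibroblast libraries was used. The authors trimmed paired-end reads with Trimmomatic 0.36, aligned them to GRCm38 with STAR (version 2.5.3a in the submitters' processing notes) and counted them per Ensembl gene with HTSeq 0.9.1. The deposited signal values (CP20M) are those counts scaled to 20000000 per library and rounded up. The legends of the study describe CP20M as per kilobase. Where 1 read is worth clearly more than 1 CP20M, a single smallest step serves long and short genes alike, so no division by gene length was assumed. The labels and the study's methods name different library kits, and strand of counting is not given in the sources used here. Samples were grouped by genotype, treatment and line from their labels. Tumoroids given 5-FU are titled colonoid but carry the floxed genotype, which was used.

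Whole reads were recovered from the step between values (97.55% to 100.0% of values whole in organoids, 99.61% to 99.95% in fibroblasts). This share says little where 1 read is near or under 1 CP20M. In tumoroid M3 Ve, M3 R4 and M14 5-FU (0.997, 0.894 and 0.991 CP20M per read) every whole number fits. Their depth was estimated from how often each value occurred, and their reads per gene are approximate. The main test was limma 3.58.1 (R 4.3.3, eBayes with trend after contrasts.fit) on log2(CP20M + 20), for genes with at least 200 CP20M in at least 2 libraries of the fit, with 1 coefficient per group and Benjamini-Hochberg adjustment over all genes tested. Fold changes are on that scale, which understates changes of low genes. For regorafenib over both genotypes limma called 2997 genes and edgeR on the recovered reads 3794. Vehicle and regorafenib contrasts in organoids used 18 libraries, 5-FU contrasts 24 and fibroblast contrasts 19. The test was also run on simulated tables without a line effect, which cannot check it for libraries paired by line. Alternatives were pseudocounts of 2 and 100, no filter, TMM factors, edgeR 4.0.16 on the recovered reads, the line as a block, other sets of libraries, the study's thresholds and each line left out, and a fit without the shallow library that also blocked on line was added after the data were seen.

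Lines recur in each treatment and come from 1 mouse each, so line pairs the libraries. Deviations from group means correlated between same-line libraries at a mean of 0.429 in 18 organoid libraries, 0.503 in 24 and 0.719 in fibroblasts. The means between lines were -0.213, -0.249 and -0.229. Subtracting group means largely sets these once same-line values are positive, so they are not separate evidence of pairing. Gene positions and lengths were read from GENCODE M21 (GRCm38), and promoters from RefSeq. Intervals cover the spread between lines.

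The 10 members and the pathway lists were chosen with earlier results of these data known. All 10 members are named, with at most the 3 called genes of largest change per list and comparison, and the 3 genes of highest Spearman rho with a member. A few genes of the pathway and marker lists are not reported here and were left out of their counts and sums.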

Additional observations from a re-analysis of the deposited data

Results flagged for a closer look

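In groups of 4 fibroblast libraries, 4 of 40 sets of member values held a library far from the others, where chance gives about 1 in 20. Line M11 had the lowest Ereg in A1, at 667 CP20M. Line M3 (2) had the highest Hbegf (1246 CP20M) and the highest Tgfa (1104 CP20M) in R4A1, and it also had the highest endothelial marker sum there, at 12257 CP20M. Line M3 had the lowest Btc in Ve, at 149 CP20M.

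Hbegf moved in opposite directions with 5-FU in the 2 genotypes, lower in all 3 colonoid lines and higher in all 3 tumoroid lines. It went from 1794, 2474 and 1733 CP20M in Ve to 1220, 1490 and 1285 in colonoids M41, M40 and M1, and from 745, 1030 and 1398 to 1163, 1528 and 1429 in tumoroids F11, M3 and M14. The difference of the log2 responses was 0.97 ± 0.39 (SE), with an unadjusted p of 0.0221 and an adjusted p of 1 in limma, so it did not pass the test.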

How the results depend on the processing

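Over the alternatives, 126 log2 fold changes gave 1826 values, of which 0 reversed a called direction, 12 lost a call and 47 gained one. The number of members called stayed within 1.5 times the reported number in 174 of 203 values, and the rest were as follows. For Apc loss it was 1 with edgeR and 1 without the shallow library. For regorafenib it was 1 over both genotypes and 1 in colonoids under the stricter thresholds of the study, which also left 0 in tumoroids, and 1 in colonoids with no filter. In tumoroids it was 2 with edgeR and 2 without the shallow library, with or without the replicate block. For R8 against R4 it was 1 with TMM, edgeR or the block and 2 without the shallow library, with or without the block. For 5-FU it was 1 with the block, with or without the shallow library. The block, which pairs libraries by line, gave 6 in fibroblasts for R4, 5 for R10, 1 for R4A1 against Ve, 1 for R4A1 against R4 and 2 for R10 against R4. Leaving out 1 line gave 2 to 5 members for regorafenib over both genotypes, 1 to 2 in colonoids, 0 to 2 in tumoroids, 0 to 1 for 5-FU and 1 to 3 for R10 in fibroblasts. In the leave-outs, an arm of 3 lines kept 2, and the spread was pooled over all groups. With the longest transcript in place of merged exons, 36 of 130 levels per kb moved by more than 1 SD. The cause of these shifts was not tested. Beyond the members named with it, the replicate block changed no other member's call.

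Each group held 3 or 4 lines, the shallow colonoid R4 library leaves that group with 2 well-sequenced lines, and R10 lacks a line. Differences between fibroblast lines cannot be told apart from differences in their cell mixture. Marker sums also changed with treatment within a line. In M3 (2) the endothelial sum was 7043 CP20M in Ve and 20026 in R4. Blocking on line therefore does not remove the mixture. Low members (Nrg1, Tgfa and Btc in fibroblasts) rest on fewer reads than the receptors.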
